A study of Mus musculus with 22 samples.

Results

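Ribosomal protein pseudogenes with a numbered symbol are 291 of the 52636 genes in the deposited table of oocyte RNA. They were chosen by symbol alone: a GENCODE mouse symbol made of Rpl or Rps, the number of the protein, "-ps" and, mostly, a running number, such as Rps23-ps1. Of these, 182 carry the name of a large subunit protein and 109 that of a small subunit protein. Together they are named after 61 genes, called parents here. Rpl31 and Rps12 have the most named copies, 23 each. One member, Rpl48-ps1, has no gene of the symbol before "-ps". The annotation calls 279 of them processed pseudogenes, 6 transcribed processed pseudogenes and 6 protein coding. Values above 0 were found for 281 members in at least 1 sample and for 172 in all 22, and 10 were at 0 everywhere.

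The samples are RNA of fully-grown germinal vesicle (GV) oocytes from C57BL/6 mice, sequenced in a single-end and a paired-end run. The single-end run holds wild-type oocytes (Dicer WT/WT, n = 3), Dicer ΔMT/ΔMT oocytes (n = 4), Dicer SOM/SOM oocytes (n = 3) and 1 Dicer ΔMT/WT sample, with no ages given. The paired-end run holds 4 controls heterozygous for both alleles (Dicer SOM/WT with Mili DAH/WT; 10, 17, 36 and 38 weeks old), 2 RNAi mutants (Dicer SOM/SOM with Mili DAH/WT; 13 and 17 weeks), 4 double mutants (Dicer SOM/SOM with Mili DAH/DAH; 11, 11, 35 and 40 weeks) and 1 piRNA mutant (Dicer SOM/WT with Mili DAH/DAH; 16 weeks). All paired-end animals, controls included, thus carry at least 1 SOM allele of Dicer and 1 DAH allele of Mili, and no wild-type animal is in that run. The ΔMT allele lacks the retrotransposon promoter of the short oocyte Dicer. The SOM allele came from 1 embryonic stem cell clone and makes only HA-tagged full-length Dicer. The DAH allele makes a MILI protein without catalytic activity. Each sample pools oocytes, and fewer oocytes with a transcript cannot be told apart from less of it per oocyte.

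A processed pseudogene is a reverse-transcribed, inserted copy of a messenger RNA, and the short, abundant messenger RNAs of ribosomal proteins have left many such copies in mammalian genomes. In mouse oocytes, Dicer cuts double-stranded RNA into small interfering RNAs (siRNAs), and a pseudogene transcript in antisense can pair with the parent messenger RNA to form such double strands. The oocyte-specific short Dicer, which lacks part of the helicase domain, does this more efficiently than full-length Dicer, which serves microRNAs.

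How far a member can be told apart from its parent is visible in the letters. Each set below shows 90 bases of the parent messenger RNA (GENCODE M21 transcript) and the aligned bases of its pseudogenes, 5′ to 3′, from the stretch of that length where the pseudogenes shown differ most from the parent; capitals mark bases that differ from the parent. Coordinates are mm10.

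The Rps23 and Rps6 sets are shown because both parents were taken by the study as potential siRNA targets and nearly all of their copies rose in the mutants. Rps23-ps1 lies on the plus strand at chr3:37714740-37714829, Rps23-ps2 on the minus strand at chr8:3584141-3584230.
Rps23: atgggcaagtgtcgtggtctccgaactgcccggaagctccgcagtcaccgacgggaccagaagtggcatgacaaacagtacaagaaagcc
Rps23-ps1: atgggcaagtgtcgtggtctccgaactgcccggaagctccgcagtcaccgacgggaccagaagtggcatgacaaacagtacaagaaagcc
Rps23-ps2: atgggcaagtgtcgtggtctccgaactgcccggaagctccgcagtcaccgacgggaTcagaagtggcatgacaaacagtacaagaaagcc
Rps6-ps4 lies on the minus strand at chr2:75191526-75191615, Rps6-ps1 on the plus strand at chr15:76337823-76337912 and Rps6-ps2 on the plus strand at chr8:88806598-88806687.
Rps6: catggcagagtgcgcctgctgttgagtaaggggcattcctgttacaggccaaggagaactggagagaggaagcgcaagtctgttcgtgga
Rps6-ps4: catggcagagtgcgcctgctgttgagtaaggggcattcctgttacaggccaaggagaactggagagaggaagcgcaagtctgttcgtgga
Rps6-ps1: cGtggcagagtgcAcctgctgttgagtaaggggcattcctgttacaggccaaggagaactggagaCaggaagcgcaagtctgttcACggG
Rps6-ps2: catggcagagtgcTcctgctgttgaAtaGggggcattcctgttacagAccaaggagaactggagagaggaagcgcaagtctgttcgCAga
Rps23-ps1 and Rps6-ps4 match their parents over their whole length of 425 and 750 bases, so a read from either cannot be told apart from one of the parent.

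The other sets are shown because their members moved apart from the parent in at least 1 comparison, with Rpsa-ps10 and Rps15a-ps7 as close copies of the same parents. Rpsa-ps5 lies on the plus strand at chr11:28957107-28957196 and Rpsa-ps10 on the minus strand at chr3:150073070-150073159.
Rpsa: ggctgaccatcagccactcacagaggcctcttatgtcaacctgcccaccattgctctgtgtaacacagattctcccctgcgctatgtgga
Rpsa-ps5: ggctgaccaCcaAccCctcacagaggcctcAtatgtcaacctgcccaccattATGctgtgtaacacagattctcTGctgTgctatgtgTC
Rpsa-ps10: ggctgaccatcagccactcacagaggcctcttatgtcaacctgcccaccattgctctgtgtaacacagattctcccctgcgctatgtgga
Rps19-ps3 lies on the minus strand at chr4:147821986-147822075.
Rps19: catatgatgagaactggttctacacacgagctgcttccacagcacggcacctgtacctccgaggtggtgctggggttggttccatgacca
Rps19-ps3: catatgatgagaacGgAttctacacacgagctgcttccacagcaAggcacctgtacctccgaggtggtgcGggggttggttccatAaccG
Rps15a-ps8 lies on the minus strand at chr4:53791367-53791456 and Rps15a-ps7 on the minus strand at chr2:152185593-152185682.
Rps15a: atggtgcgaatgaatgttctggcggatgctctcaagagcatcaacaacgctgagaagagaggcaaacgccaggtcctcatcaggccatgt
Rps15a-ps8: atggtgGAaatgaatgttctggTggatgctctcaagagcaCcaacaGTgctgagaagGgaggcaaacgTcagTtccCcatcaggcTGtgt
Rps15a-ps7: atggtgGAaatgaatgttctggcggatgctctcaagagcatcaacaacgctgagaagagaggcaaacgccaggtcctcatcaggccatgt
Rpl31-ps7 lies on the minus strand at chr6:47786076-47786165.
Rpl31: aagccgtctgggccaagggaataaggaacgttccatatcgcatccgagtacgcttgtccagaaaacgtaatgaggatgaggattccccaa
Rpl31-ps7: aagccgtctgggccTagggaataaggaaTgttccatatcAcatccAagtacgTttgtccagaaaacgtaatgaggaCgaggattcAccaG
The longest stretch without a difference from the parent is 161 bases in Rpsa-ps5, 125 in Rps19-ps3 and 65 in both Rps15a-ps8 and Rpl31-ps7, against 350 in Rpsa-ps10 and 211 in Rps15a-ps7.

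Over the whole set, identity to the parent had a median of 95.9% (287 members aligned), and 162 members were at least 95% identical. Reads of the single-end run are 50 bases long, and a median of 39.6% of a member's stretches of 50 bases (50-mers) also occur in transcripts of other genes. Of the 75-mers, the read length of the paired-end run, a median of 21.3% do. The authors divided a read that maps to several places between these places, so the value of a member holds a part of the reads of its parent and of other copies, and only 4 members above 0 had whole numbers in all samples. The exons of 8 members overlap an exon of another gene, on the other strand in Rpl13-ps2, Rps23-ps1 and Rps23-ps2, and counting ignored strand. Inside an intron of another gene lie 77 members.

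Members were tested where their counts passed a filter, at least about 10 counts in a number of samples set by the size of the smallest group. This left 217 for the single-end run and 125, all of them among the 217, for the paired-end run. The filter kept few members with sequence of their own. Of the 31 members without a 50-mer in another gene, 4 (12.9%) were tested in the single-end run, while all 34 members with every 50-mer in another gene were. By 75-mers, 4 of the 78 members without a shared 75-mer (5.13%) and 27 of the 33 fully shared ones (81.8%) were tested in the paired-end run. What follows on the tested members is therefore mostly about copies that share reads, and 74 members were tested in neither run.

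**Figure D1:**
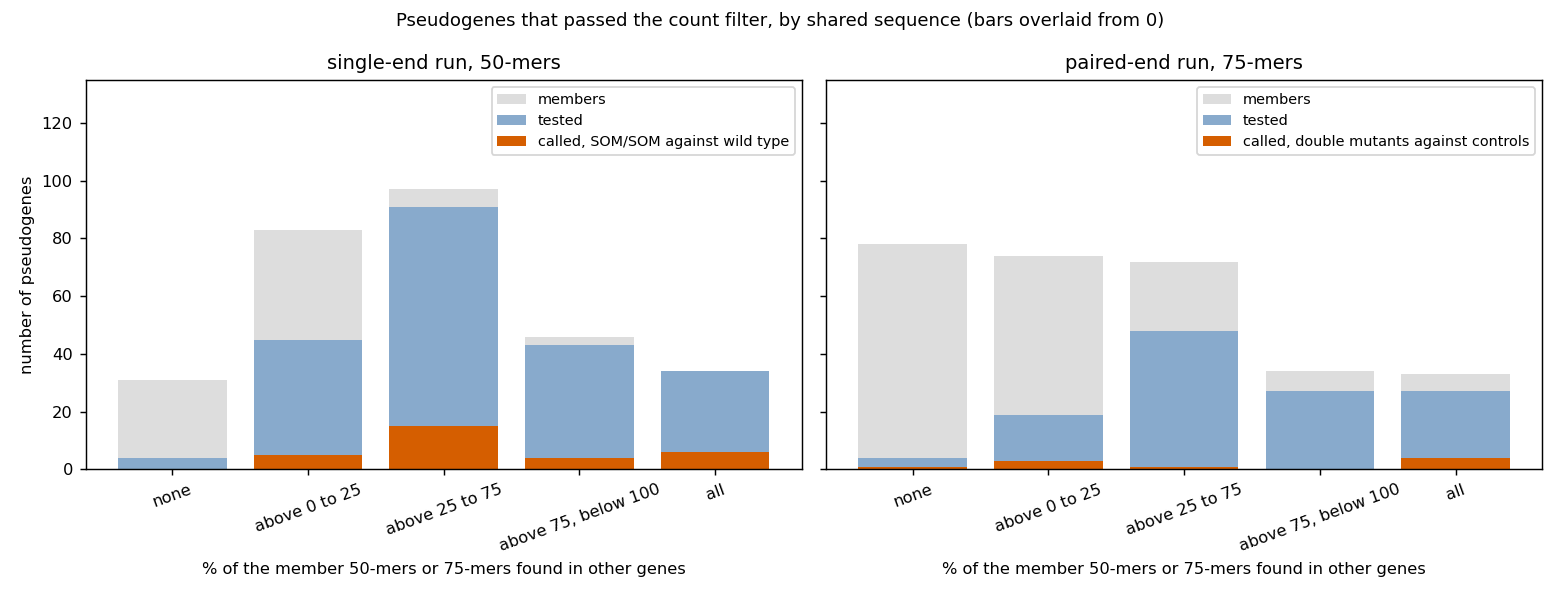
Bars give the number of pseudogenes (y axis) by the percentage of their 50-mers (left, single-end run) or 75-mers (right, paired-end run) found in other genes: grey all 291 members, blue those that passed the count filter, orange those called in Dicer SOM/SOM against wild type or in double mutants against controls. Without shared 50-mers, 4 of 31 were tested, and with all of them shared, 34 of 34.

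Estimated counts summed to 6468380 to 90713013 per sample in the single-end run, the lowest in Dicer SOM/SOM replicate 3, and to 22928936 to 43540806 among paired-end samples. Values are given as CPM, counts scaled to library size, after TMM normalization, and 3 counts, the limit that a count of 0 allows, correspond to between 0.0331 and 0.464 CPM (for counting error only, as these PCR reads carry no molecular identifiers and are no independent molecules). Dicer1, the gene altered by both alleles, lay between 996 and 1048 CPM in wild type, at 718 in Dicer ΔMT/WT, between 427 and 533 in Dicer ΔMT/ΔMT and between 41.8 and 54.4 in Dicer SOM/SOM. It lay between 513 and 762 CPM in controls and the piRNA mutant and between 53.0 and 61.6 in RNAi and double mutants. All 8 oocyte markers examined (such as Gdf9 and Zp3) were above 1 CPM in every sample, 10 granulosa and cumulus cell markers summed to between 81.1 and 152 CPM, 7 B cell genes to between 82.4 and 226 CPM with Igkc at 0 in every sample, and 4 globin genes to at most 0.299 CPM. The B cell genes were lower in Dicer SOM/SOM, 82.4 to 120 CPM, than in wild type, 190 to 200 CPM, and the part of this in the results below was not tested. Gm42418, which overlaps a ribosomal RNA repeat, lay at 12710 and 17380 CPM in Dicer SOM/SOM replicates 1 and 3 and between 4756 and 7565 in the other single-end samples. Among paired-end samples it lay between 4073 and 5554 in 6 samples and between 296 and 548 in 5. Paired-end replicates of a group differ in age and so come from different animals, except the double mutants of 11 weeks, which share an age. The paper calls the 4 double mutants and 4 controls biological replicates. For wild type, Dicer ΔMT/ΔMT and Dicer SOM/SOM it states 3 biological replicates. It does not say whether each of these samples came from a different animal. The p-values measure the spread between samples.

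All members together summed to between 1115 and 1156 CPM in wild type, between 1159 and 1320 in Dicer ΔMT/ΔMT and between 1221 and 1379 in Dicer SOM/SOM. Dicer ΔMT/WT was at 1132. No sample of either homozygous mutant lay below the wild-type range, and the highest value was that of Dicer SOM/SOM replicate 3. The 61 parents showed the same order, from 1370 to 1493 CPM in wild type, 1497 to 1718 in Dicer ΔMT/ΔMT and 1543 to 1793 in Dicer SOM/SOM. The mean of the members was 1.105 times the wild-type mean in Dicer ΔMT/ΔMT and 1.133 times in Dicer SOM/SOM, and that of the parents 1.136 and 1.155 times (ratios of geometric means). Paired-end samples had lower sums of members, between 243 and 349 CPM in controls, 342 and 362 in RNAi mutants and 305 to 362 in double mutants, with the piRNA mutant at 259. Control replicate 2, at 349, was the only control inside the range of the RNAi and double mutants. The share of members in the reads of members and parents together was between 43.4% and 44.9% in the single-end samples whatever the genotype. Among paired-end samples it was between 9.76% and 10.8% in controls, 10.4% and 10.9% in RNAi mutants and 11.0% and 12.7% in double mutants, with the piRNA mutant at 10.3%, so that double mutants did not overlap with controls.

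**Figure D2:**
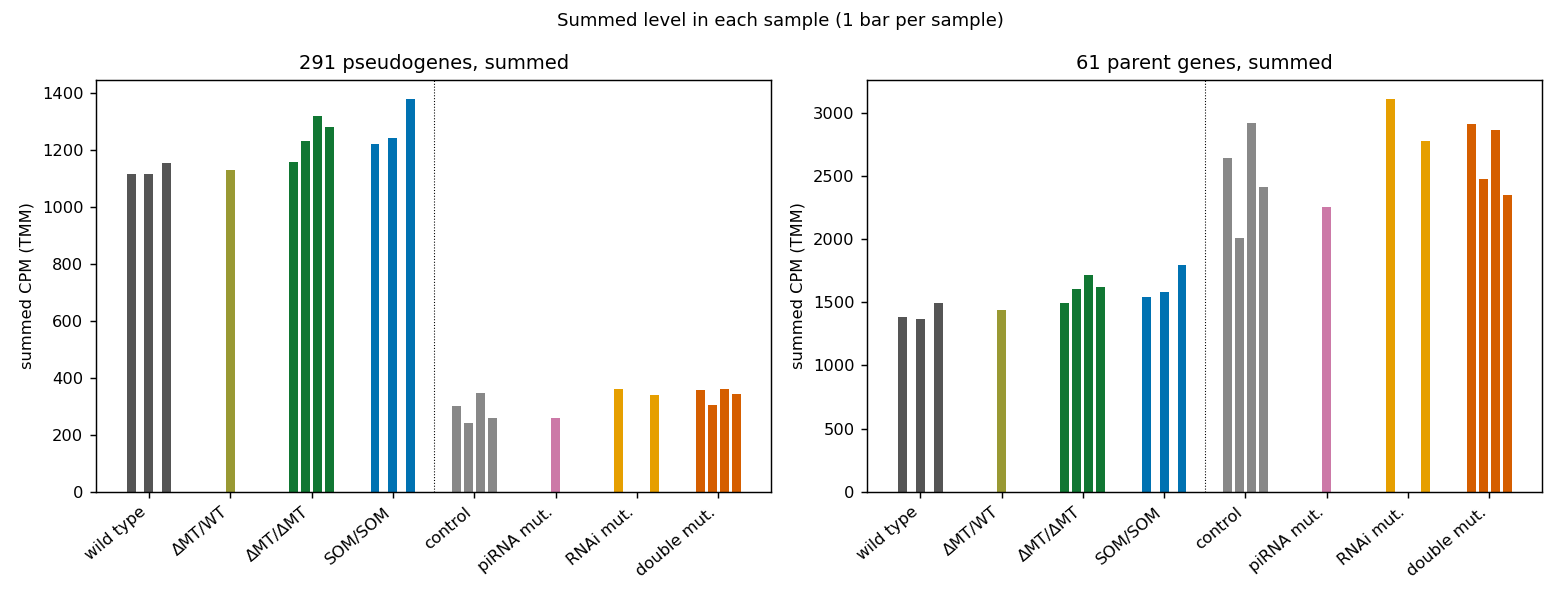
Each bar is 1 sample and its height the summed CPM of the 291 pseudogenes (left) or of their 61 parent genes (right); the dotted line parts the single-end from the paired-end run. Wild-type bars of the pseudogenes reach 1115 to 1156 CPM and control bars 243 to 349.

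Rpl10a-ps1, a copy identical to Rpl10a over 654 bases on chromosome 1, had the highest mean in wild type, 80.2 ± 6.81 CPM (SD, n = 3), and in controls, 21.9 ± 3.55 CPM (SD, n = 4). It was followed in wild type by Rpl36a-ps3, Rpl5-ps2, Rpl5-ps1, Rpl14-ps1, Rpl18-ps1, Rpl10-ps3 and Rpl28-ps1. Per kilobase, Rpl36a-ps3 was the highest of these, at 149 CPM per kb in wild type against 21.6 for Rpl36a, and Rpl10a-ps1 had 123 against 97.7 for Rpl10a. Rpl36a-ps3 shares no 50-mer with Rpl36a. It shares 81.6% of its 50-mers with 3 other genes. The longest stretch that Rpl18-ps1 shares with Rpl18 is 11 bases. Rpl5-ps2 and Rpl5-ps1, copies of the gene of a 5S RNA-binding protein of the large subunit, had 52.8 and 51.0 CPM per kb in wild type, side by side with 62.9 for Rpl5. In controls they had 3.99 and 17.2 against 162. Levels were therefore compared only within a run.

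Against wild type, Dicer ΔMT/ΔMT oocytes had 15 members higher and none lower of 217 tested (edgeR's quasi-likelihood test, Benjamini-Hochberg adjusted p under 0.05). That is 6.91% higher, beside 8.06% of all 23151 genes tested, and 0 lower, beside 7.3%. At an unadjusted p under 0.05, 43 members of 217 were higher and 3 lower, beside 3478 higher and 3350 lower of all 23151 genes. DESeq2 and limma-voom each called 1 member lower. The median log2 fold change was 0.15 over members, 0.20 over the 61 parents and 0.01 over all genes, and 161 of the 217 members had a positive value. Of the parents, 8 were higher and 0 lower. The 15 members belong to 8 families: all 4 Rps6 copies, both Rps23, both tested Rps18 and both Rpl10a copies, 2 of 9 Rpsa copies, and 1 each of Rps15a, Rps19 and Rpl23a. Without 1 sample, the count was 5 (wild-type replicate 1), 5 (replicate 2), 10 (replicate 3), 11 (Dicer ΔMT/ΔMT replicate 1), 8 (replicate 2), 7 (replicate 3) or 7 (replicate 4), and the Rps23 copies, Rps6-ps1 and Rps6-ps4 were called in all 7 of these fits.

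In Dicer SOM/SOM, 27 members were higher and 3 lower than in wild type. The shares were 12.4% and 1.38%, beside 14.5% and 14.2% of all genes. The median log2 fold change was 0.16 over members, 0.20 over parents and 0.02 over all genes. Of the parents, 12 were higher and 1, Rps15a, lower. The members came from 16 of 59 tested families, with 8 of 9 Rpsa copies, 4 of 4 Rps6 copies and both Rps23 copies higher. Of the 15 members called in Dicer ΔMT/ΔMT, 11 were called in Dicer SOM/SOM, and both comparisons share the wild-type samples. Left out in turn, wild-type replicates 2 and 3 each reduced the count from 30 to 18. Without Dicer SOM/SOM replicates 1 and 3, those with the most Gm42418, fewer members were called. That fit leaves 1 sample in the group, so it cannot tell a part of Gm42418 from the loss of samples.

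Tested directly, Dicer SOM/SOM and Dicer ΔMT/ΔMT differed in 12 members, 6 higher and 6 lower in Dicer SOM/SOM, which is 2.76% each beside 4.03% and 3.32% of all genes. Higher were both Rps23 copies, Rps6-ps4, Rps6-ps1, Rpl15-ps5 and Rps15a-ps8. Lower were 5 Rps15a copies and Rps13-ps2. Without Dicer ΔMT/ΔMT replicate 2 or 3, 4 members were left, all higher. It was 7 without replicate 4 and 5 without Dicer SOM/SOM replicate 1. Without both Dicer SOM/SOM replicates 1 and 3, which leaves 1 sample in that group, fewer members were called. Both Rps23 copies and Rps15a-ps8 were still among them.

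In the paired-end run, RNAi mutants had 7 members higher and none lower than controls, of 125 tested. This is 5.6% beside 7.07% of all 20989 genes for higher, and 0 beside 3.64% for lower. Without adjustment, 9 members had a p under 0.05, all of them higher, beside 2705 higher and 2246 lower of all 20989 genes. DESeq2 called 8 members higher and none lower. The 7 members were both Rps23 copies, Rps6-ps1, Rps6-ps4, Rpsa-ps5, Rps19-ps3 and Rpl10a-ps1. Their count was 4 without RNAi mutant replicate 1, 3 without replicate 2, 4 without control replicate 2o or 3 (numbers ending in o are those of the older animals), and 3 with a term for age class (35 weeks or more, or less). The RNAi mutants are both young, and with the age term Rpl10a-ps1, Rps19-ps3, Rps6-ps1 and Rps6-ps4 were not called.

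In double mutants, 9 members were higher and none lower than in controls, 7.2% beside 12.3% of all genes for higher and 0 beside 8.84% for lower. Without adjustment, 11 higher and 2 lower members had a p under 0.05, beside 3726 higher and 3176 lower of all 20989 genes. DESeq2 called none lower, and limma-voom 1, Rpl12-ps2. The 9 included all 7 members called in RNAi mutants, with which they share the controls, and Rpl31-ps7 and Rps4l-ps. Of the 30 members called in Dicer SOM/SOM against wild type, 21 could be tested in double mutants and 7 of these were called; the remaining 2 of the 9, Rpl10a-ps1 and Rps4l-ps, were tested but not called in Dicer SOM/SOM. The median log2 fold change was 0.03 in double and 0.11 in RNAi mutants, beside −0.0012 and −0.02 over all genes. Of the parents, Rps23 and Rps6 were higher in each, and Rpl38 was lower in double mutants. Between double and RNAi mutants, edgeR called no member, beside 0.31% of all genes higher and 0.00476% lower. Without adjustment, p was under 0.05 for 2 members, both higher, beside 695 higher and 309 lower of all 20989 genes. DESeq2 called Rpsa-ps5, and limma-voom called none. Genotype by age class compared double mutants and controls of 35 weeks or more with those of 17 weeks or less. It gave no call among 122 members by edgeR or by DESeq2, beside 0.00485% of all genes by edgeR. No member had an unadjusted p under 0.05 by edgeR, beside 568 genes with a positive and 462 with a negative value among all 20626.

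Rps23 is a protein of the decoding centre of the small subunit. The messenger RNA itself has been taken as an siRNA target, and both copies tracked it. Rps23-ps1 (ENSMUSG00000100755.1) lies on chromosome 3 from 37714740 to 37715164 and shares its place with Gm5148 on the other strand. It was measured at 3.13, 1.98 and 2.85 CPM in wild type, at 8.56, 9.07, 8.66 and 9.79 in Dicer ΔMT/ΔMT and at 16.1, 17.1 and 18 in Dicer SOM/SOM. Dicer ΔMT/WT was at 2.88, inside the wild-type range. The 3 homozygous groups did not overlap, and Dicer SOM/SOM lay farthest from wild type. The log2 fold change against wild type, with its standard error (SE), was 1.76 (SE 0.15, adjusted p = 5.17e-05) in Dicer ΔMT/ΔMT and 2.68 (SE 0.17, adjusted p = 1.68e-06) in Dicer SOM/SOM, and 0.92 between these (SE 0.14, adjusted p = 0.00371).

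In the paired-end run, Rps23-ps1 had 1.28, 0.923, 1.23 and 1.32 CPM in controls (in the order replicate 1o, 2o, 2, 3), 0.929 in the piRNA mutant, 9.21 and 7.81 in RNAi mutants and 8.36, 6.35, 7.65 and 5.33 in double mutants (1o, 2o, 1, 2). Every sample with 2 SOM alleles was above every sample with 1. The log2 fold changes were 2.85 (SE 0.24, adjusted p = 4.72e-06) in RNAi and 2.55 (SE 0.22, adjusted p = 2.37e-06) in double mutants, and −0.30 (SE 0.24, adjusted p = 0.9997) between these. The parent moved alike, with log2 fold changes of 1.74 in Dicer ΔMT/ΔMT, 2.62 in Dicer SOM/SOM, 2.56 in RNAi and 2.32 in double mutants. Rps23-ps1 stood at 44.1% to 48.6% of the Rps23 value in all 11 single-end samples, whatever the genotype, and at 8.44% to 12.01% in the paired-end samples. Gm5148, on the other strand of the same bases, had nearly the same values, 14.9 to 17.2 CPM in Dicer SOM/SOM.

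Rps23-ps2 (ENSMUSG00000066902.7, chromosome 8, 3583799 to 3584230) overlaps C330021F23Rik on the other strand and differs from Rps23 in 1 of the 90 bases shown. It rose in the same comparisons, by 1.73 (SE 0.15, adjusted p = 4.68e-05) in Dicer ΔMT/ΔMT, 2.68 (SE 0.16, adjusted p = 1.34e-06) in Dicer SOM/SOM, 2.56 (SE 0.32, adjusted p = 0.000124) in RNAi and 2.32 (SE 0.28, adjusted p = 4.89e-05) in double mutants. C330021F23Rik had log2 fold changes of 1.64, 2.61, 2.57 and 2.31. Every 50-mer of both Rps23 copies occurs in other genes, so the copies, the overlapping genes and the parent cannot be told apart by these counts.

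**Figure D3:**
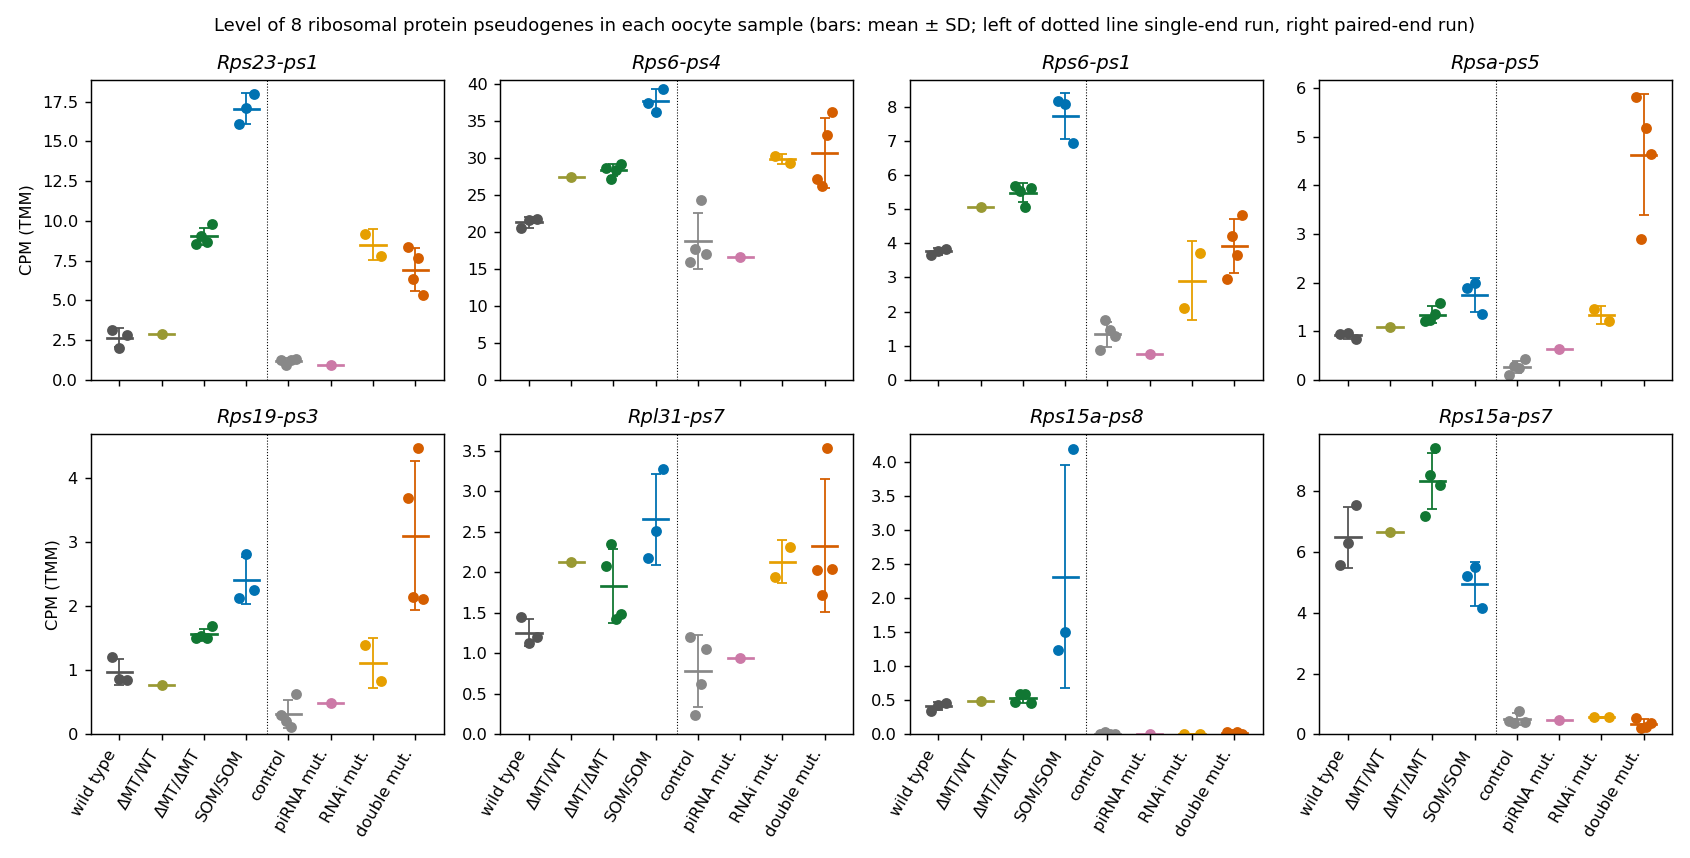
Points are samples, horizontal lines group means and bars the SD, with CPM on linear y axes from 0; the dotted line parts the single-end from the paired-end run. Rps23-ps1 reaches 16.1 to 18 CPM in SOM/SOM against 1.98 to 3.13 in wild type, and Rpsa-ps5 reaches 2.90 to 5.81 in double mutants against at most 0.428 in controls.

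Rps6 is the small subunit protein phosphorylated by S6 kinase. Its 4 copies rose in both mutants of the single-end run. Rps6-ps4, identical to the parent and inside an intron of 2600014E21Rik on the other strand, had 20.5, 21.6 and 21.7 CPM in wild type, 28.6, 27.2, 28.4 and 29.2 in Dicer ΔMT/ΔMT and 37.4, 36.2 and 39.3 in Dicer SOM/SOM. The groups did not overlap. Dicer ΔMT/WT, at 27.5, lay inside the Dicer ΔMT/ΔMT range, unlike for Rps23-ps1. Rps6-ps4 rose by 0.41 on the log2 scale (SE 0.08, adjusted p = 0.0057) in Dicer ΔMT/ΔMT and by 0.82 (SE 0.09, adjusted p = 4.96e-05) in Dicer SOM/SOM, beside 0.42 and 0.83 for Rps6. In controls it had 15.9, 17.7, 24.3 and 17.1 CPM, in RNAi mutants 30.3 and 29.3 and in double mutants 27.2, 26.2, 33.1 and 36.2, with log2 fold changes of 0.68 (SE 0.19, adjusted p = 0.0383) and 0.71 (SE 0.16, adjusted p = 0.00616). Control replicate 2 was the highest control and still below all of these. In RNAi mutants this call was lost without any of 5 of the 6 samples, the highest adjusted p being 0.22 without RNAi mutant replicate 1.

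Rps6-ps1 (ENSMUSG00000063875.5, chromosome 15) has 48.9% of its 50-mers in other genes and 6 differences in the 90 bases shown. It had 3.66, 3.78 and 3.85 CPM in wild type, 5.68, 5.55, 5.07 and 5.62 in Dicer ΔMT/ΔMT and 8.18, 8.07 and 6.95 in Dicer SOM/SOM. Against wild type it rose by 0.54 (SE 0.11, adjusted p = 0.00936) in the first mutant and by 1.06 (SE 0.12, adjusted p = 0.000109) in the second. Controls were at 0.873, 1.76, 1.45 and 1.27, RNAi mutants at 2.10 and 3.72 and double mutants at 2.96, 4.22, 3.67 and 4.84. Both mutants lay above all controls, and the change in double mutants, 1.56 (SE 0.29, adjusted p = 0.00142), was larger than that of Rps6, 0.69 (SE 0.13); the difference between these was not tested. Its value was 1.85% to 3.49% of the Rps6 value in controls and 3.49% to 5.43% in double mutants. The nearest tested gene at lower coordinates, Gpaa1, 2709 bases away, had a log2 fold change of 0.84 (adjusted p = 0.00398) in Dicer SOM/SOM and 0.57 (adjusted p = 0.0815) in double mutants. Its part in the result was not tested. In RNAi mutants the call for Rps6-ps1 (log2 fold change 1.15, adjusted p = 0.0432) was lost without RNAi mutant replicate 2 (adjusted p = 0.513) and without control replicate 1o, 2 or 3 (0.0991, 0.0622 and 0.0814).

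Rps6-ps2 and Rps6-ps3 rose by 0.88 and 0.83 on the log2 scale in Dicer SOM/SOM (adjusted p = 0.00123 and 0.000251) and by 0.55 and 0.47 in Dicer ΔMT/ΔMT (adjusted p = 0.019 and 0.00999). In the paired-end run, Rps6-ps2 lay at or below 0.288 CPM and was not tested. Rps6-ps3 had log2 fold changes of 0.41 and 0.43 there, with adjusted p of 0.405 and 0.198.

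The study took 3 further parents of named copies as potential siRNA targets, Rps18, Rpl19 and Rpl7, all structural proteins of the ribosome. With Rps6 and Rps23 these have 17 named copies, of which 15 were tested in the single-end run. In Dicer ΔMT/ΔMT 8 of the 15 (53.3%, beside 8.06% of all genes) were higher, in Dicer SOM/SOM 7 (46.7%, beside 14.5%), and none was lower, with median log2 fold changes of 0.41 and 0.50. Of the 10 tested in the paired-end run, 4 (40%, beside 7.07% of all genes in RNAi and 12.3% in double mutants) were higher in both mutants, all of them Rps23 or Rps6 copies. Their parents were listed by the study from small RNA data that were not used here, and the copies share the reads of these parents. Over the 202 members of other parents, 7 (3.47%) were higher in Dicer ΔMT/ΔMT, and 20 (9.9%) were higher and 3 (1.49%) lower in Dicer SOM/SOM, shares below those of all genes, with medians of 0.13 in both.

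Rps18-ps1 had 2.29 to 2.35 CPM in wild type, 3.03 to 3.40 in Dicer ΔMT/ΔMT and 3.05 to 3.26 in Dicer SOM/SOM, and the mutants did not overlap with wild type. It rose by 0.48 (adjusted p = 0.023) and 0.45 (adjusted p = 0.0292) on the log2 scale. Rps18-ps3 had log2 fold changes of 0.42 (adjusted p = 0.0248) in Dicer ΔMT/ΔMT and 0.35 (adjusted p = 0.0501) in Dicer SOM/SOM. The 6 tested Rpl19 copies gave no call in either mutant. The largest difference among them was in Rpl19-ps10, with −0.72 (adjusted p = 0.0852) for Dicer SOM/SOM against Dicer ΔMT/ΔMT, at 0.378 CPM in Dicer SOM/SOM replicate 3 and 0.881 and 0.936 in replicates 1 and 2. Rpl7-ps7 had log2 fold changes of 0.40 and 0.50, with adjusted p of 0.162 and 0.0838. The Rps18 calls did not hold without 1 sample in 5 of 7 fits in Dicer ΔMT/ΔMT, where the highest adjusted p of Rps18-ps1 was 0.0746 without wild-type replicate 2 and that of Rps18-ps3 0.1 without wild-type replicate 1. The call of Rps18-ps1 in Dicer SOM/SOM was lost in 4 of 6 such fits, with adjusted p up to 0.0812 without Dicer SOM/SOM replicate 1, and also without Dicer SOM/SOM replicates 1 and 3 together.

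Rpsa encodes the laminin receptor protein of the small subunit. It has 9 named copies, and of these 8 were higher in Dicer SOM/SOM and 2, Rpsa-ps10 and Rpsa-ps2, in Dicer ΔMT/ΔMT, where both calls were lost in all 7 fits without 1 sample. Without Dicer SOM/SOM replicates 1 and 3, those with the most Gm42418, all these calls in Dicer SOM/SOM but that of Rpsa-ps5 were lost. That fit leaves 1 sample in the group. The parent rose too, by 0.41 (adjusted p = 0.0458) in Dicer ΔMT/ΔMT and by 0.67 (adjusted p = 0.00334) in Dicer SOM/SOM. Rpsa-ps10, whose 90 bases above equal those of the parent, had 5.82, 6.09 and 5.83 CPM in wild type, 7.46 in Dicer ΔMT/WT, 7.75, 7.71, 7.499 and 8.55 in Dicer ΔMT/ΔMT and 9.22, 7.69 and 10.6 in Dicer SOM/SOM. It went up by 0.61 (SE 0.13, adjusted p = 0.00635) in Dicer SOM/SOM, much as the parent did. Paired-end values were 1.79, 1.37, 2.65 and 1.68 CPM in controls and 2.07, 1.93, 2.46 and 2.53 in double mutants, with a log2 fold change of 0.27 (adjusted p = 0.499).

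Rpsa-ps5 (ENSMUSG00000081695.1, chromosome 11, 28956724 to 28957608, 92.4% identical to Rpsa) went apart from this family. In controls it had 0.108, 0.289, 0.236 and 0.428 CPM, in RNAi mutants 1.46 and 1.20 and in double mutants 5.81, 2.90, 5.18 and 4.64. The piRNA mutant was at 0.64, above every control. The 3 groups with replicates did not overlap, and double mutants were the highest. The mean was 17.5 times that of controls in double mutants and 5.03 times in RNAi mutants, with log2 fold changes of 4.18 (SE 0.39, adjusted p = 4.31e-06) and 2.40 (SE 0.44, adjusted p = 0.00272). The parent had 0.28 and 0.37, with adjusted p of 0.266 and 0.28. Between double and RNAi mutants, the log2 difference of Rpsa-ps5 was 1.78 (SE 0.43) with an adjusted p of 0.15 by edgeR and a call by DESeq2, and the exact permutation test of 4 samples against 2 gave p = 0.0667, the smallest it can give. In the single-end run, Rpsa-ps5 had 0.946, 0.97 and 0.837 CPM in wild type, 1.21, 1.23, 1.36 and 1.58 in Dicer ΔMT/ΔMT and 1.88, 1.997 and 1.36 in Dicer SOM/SOM, where it stood at 7.72% to 16.4% of the Rpsa value. The rise in Dicer SOM/SOM was 0.98 (SE 0.21, adjusted p = 0.00562). Both calls of the paired-end run and that of Dicer SOM/SOM remained in every fit without 1 sample. The nearest tested gene, Efemp1, lies 29981 bases away on the same strand and had a log2 fold change of 1.496 (adjusted p = 0.0132) in double mutants.

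Rps19-ps3 (ENSMUSG00000080059.4, chromosome 4, 147821777 to 147822202) is a copy of the gene of a small subunit protein that is mutated in Diamond-Blackfan anaemia. It had 1.21, 0.859 and 0.848 CPM in wild type, 1.51, 1.53, 1.51 and 1.69 in Dicer ΔMT/ΔMT and 2.13, 2.82 and 2.26 in Dicer SOM/SOM, and 0.773 in Dicer ΔMT/WT. It rose by 0.68 (SE 0.19, adjusted p = 0.0333) and 1.33 (SE 0.21, adjusted p = 0.000737). Controls were at 0.302, 0.215, 0.113 and 0.629, RNAi mutants at 1.39 and 0.833 and double mutants at 3.68, 2.14, 4.46 and 2.12, with the piRNA mutant at 0.488. The replicated groups did not overlap in either run. Its rise over controls was 1.88 on the log2 scale (SE 0.54, adjusted p = 0.0402) in RNAi and 3.36 (SE 0.46, adjusted p = 0.000153) in double mutants. The calls in Dicer ΔMT/ΔMT and in RNAi mutants held in 1 fit each without 1 sample, and the second was lost with an age term (adjusted p = 0.1), with a highest adjusted p of 0.295 without RNAi mutant replicate 1.

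Rps19 had no call in any comparison, with log2 fold changes between −0.07 and 0.08 against wild type or controls. The 3′ end of Zfp933, a zinc finger gene on the same strand, lies 784 bases from Rps19-ps3, so that the pseudogene is downstream of it. Zfp933 was measured at 8.77 to 10.1 CPM in wild type, 21.6 to 29.0 in Dicer ΔMT/ΔMT and 26.4 to 32.0 in Dicer SOM/SOM, and at 9.84 to 14.9 in controls, 34.3 and 12.8 in RNAi mutants and 44.0 to 53.8 in double mutants. Zfp933 had log2 fold changes of 1.42 (adjusted p = 6.16e-05) in Dicer ΔMT/ΔMT, 1.63 (adjusted p = 1.11e-05) in Dicer SOM/SOM, 0.90 (adjusted p = 0.0722) in RNAi and 1.995 (adjusted p = 8.39e-05) in double mutants. It was looked at for its place after the values of Rps19-ps3 were seen, and its part in that result was not tested.

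Rpl31-ps7 (ENSMUSG00000097255.1, chromosome 6, 47785996 to 47786374) has 4.85% of its 50-mers and none of its 75-mers in other genes. It had 1.44, 1.12 and 1.20 CPM in wild type, 2.12 in Dicer ΔMT/WT, 2.07, 2.34, 1.42 and 1.48 in Dicer ΔMT/ΔMT and 2.18, 2.51 and 3.27 in Dicer SOM/SOM. Dicer ΔMT/ΔMT overlapped with wild type, and Dicer ΔMT/WT and Dicer SOM/SOM did not. It rose by 1.03 (SE 0.25, adjusted p = 0.01) in Dicer SOM/SOM and by 1.56 (SE 0.41, adjusted p = 0.0155) in double mutants, where it had 2.02, 1.72, 3.54 and 2.03 CPM against 1.21, 0.236, 0.624 and 1.06 in controls. The call in double mutants was lost without double mutant replicate 1 (adjusted p = 0.0549). RNAi mutants had 1.94 and 2.31 CPM, above every control, a rise that DESeq2 called and edgeR did not. Rpl31, a large subunit protein gene, had log2 fold changes of −0.02 in Dicer SOM/SOM and 0.12 in double mutants. The nearest tested gene on its strand, Pdia4, lies 9767 bases away. It was lower in Dicer SOM/SOM, with −0.67 (adjusted p = 0.00021), and in double mutants, with −0.56 (adjusted p = 0.0112).

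Rps15a and Rps13, both small subunit proteins, had copies that were lower in Dicer SOM/SOM than in Dicer ΔMT/ΔMT. Rps15a had 24.9 to 30.8 CPM in Dicer ΔMT/ΔMT, 18.6 to 23.8 in wild type and 12.9 to 17.3 in Dicer SOM/SOM. Against wild type the parent thus rose by 0.42 (adjusted p = 0.0465) in the first and fell by 0.45 (adjusted p = 0.0305) in the last. Rps15a-ps7, the copy closest to it by shared 50-mers, had 7.17, 8.51, 9.40 and 8.18 CPM in Dicer ΔMT/ΔMT, 5.57, 6.30 and 7.53 in wild type and 5.21, 5.49 and 4.14 in Dicer SOM/SOM. Set against the 4 Dicer ΔMT/ΔMT samples, those of Dicer SOM/SOM were lower: it fell by 0.70 (SE 0.15, adjusted p = 0.0203). Rps15a-ps3, -ps4, -ps5 and -ps6 fell by 0.62 to 0.77 and Rps13-ps2 by 0.64, and all 6 calls were lost without Dicer ΔMT/ΔMT replicate 2, with adjusted p between 0.0505 and 0.0671, and without Dicer SOM/SOM replicates 1 and 3.

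Rps15a-ps8 (ENSMUSG00000084403.1, chromosome 4, 53791070 to 53791456) went the other way. It had 0.348, 0.432 and 0.455 CPM in wild type, 0.489 in Dicer ΔMT/WT, 0.472, 0.597, 0.59 and 0.466 in Dicer ΔMT/ΔMT and 1.23, 1.51 and 4.20 in Dicer SOM/SOM. The highest value was that of Dicer SOM/SOM replicate 3, the sample with the lowest depth and the most Gm42418. It rose by 2.325 on the log2 scale (SE 0.42, adjusted p = 0.00205) against wild type and 1.96 (SE 0.38, adjusted p = 0.0116) against Dicer ΔMT/ΔMT, and 1.88 (adjusted p = 0.00331) and 1.51 (adjusted p = 0.0293) with Dicer SOM/SOM replicate 2 alone, a lone sample assumed to vary like the other groups. Paired-end values lay at or below 0.0332 CPM in every sample, under the value of 3 counts, and it was not tested there. Of its sequence, 9.47% of the 50-mers occur in other genes.

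Smaller changes make up the rest of the named calls. Rpl10a-ps1, which had equal shares with Rpl10a in the single-end run (98.5% to 101% of its value), was higher in Dicer ΔMT/ΔMT, 0.35 (adjusted p = 0.0395), in RNAi mutants, 0.78 (adjusted p = 0.0389), and in double mutants, 0.61 (adjusted p = 0.0331), but had 0.21 (adjusted p = 0.168) in Dicer SOM/SOM. The call in Dicer ΔMT/ΔMT held in 1 of 7 fits without 1 sample, that in RNAi mutants in 1 of 6 and that in double mutants in 4 of 8. The parent Rpl10a moved much alike but was not called in RNAi mutants, 0.80 (adjusted p = 0.0578), or double mutants, 0.52 (adjusted p = 0.0995). In Dicer ΔMT/ΔMT its mean was 1.265 times that of wild type, beside 1.278 times for Rpl10a-ps1. Rpl15-ps5 rose by 0.80 (adjusted p = 0.0026) in Dicer SOM/SOM, from 1.73 to 2.17 CPM in wild type to 3.32 to 3.67, and its parent by 1.04 (adjusted p = 0.000935), while its call against Dicer ΔMT/ΔMT, 0.52 (adjusted p = 0.0479), was lost in all 7 fits without 1 sample. Rpl23a-ps3 had 0.53 (adjusted p = 0.031) in Dicer ΔMT/ΔMT and 0.59 (adjusted p = 0.0159) in Dicer SOM/SOM, and Rps15a-ps2 0.68 (adjusted p = 0.0298) in Dicer ΔMT/ΔMT. Both calls in Dicer ΔMT/ΔMT held in 2 of 7 fits without 1 sample, with adjusted p up to 0.112 and 0.0941 without wild-type replicate 2. The call of Rpl23a-ps3 in Dicer SOM/SOM was lost in 3 of 6 fits, without wild-type replicate 1 or 2 or Dicer SOM/SOM replicate 1, with adjusted p up to 0.0609 without wild-type replicate 2, and without Dicer SOM/SOM replicates 1 and 3 together. Rpl29-ps2 had 1.09 (adjusted p = 0.0253) in Dicer SOM/SOM, where replicate 3 was at 2.67 CPM and replicates 1 and 2 at 0.982 and 1.23, and that call was lost without any of the wild-type samples (adjusted p up to 0.0699).

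Rps4l-ps, named after its values were seen, had 0.395, 0.976, 0.435 and 0.422 CPM in double mutants against 0.134, 0, 0.113 and 0.155 in controls. It rose by 2.37 on the log2 scale (SE 0.725, adjusted p = 0.0316), a call that was lost without double mutant replicate 2o (adjusted p = 0.109) or control replicate 1o or 2. In Dicer SOM/SOM it had 0.25 (adjusted p = 0.53).

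Set beside their parents, 210 of the 216 members with a tested parent lay within 0.5 log2 units of the parent's change in Dicer ΔMT/ΔMT, 193 in Dicer SOM/SOM, and 112 of 125 in double mutants. Reads that map to both were divided between them, and the median changes in Dicer ΔMT/ΔMT were small, 0.15 over members and 0.20 over parents. This closeness was therefore in part set in advance. The median distance was 0.16 log2 units in Dicer SOM/SOM for members with some and up to 25% of their 50-mers in other genes and 0.08 for those with 25% to 75%. It was 0.32 for the few without a shared 50-mer, 0.05 above 75% but below 100%, and 0.10 with all shared. In double mutants it was 0.43 for members with some and up to 25% of their 75-mers shared and 0.13 for those with 25% to 75%. The few without a shared 75-mer had 0.79, those above 75% but below 100% 0.08, and fully shared ones 0.09. A distance of 1 log2 unit or more was found for 5 members in Dicer SOM/SOM, of which Rps15a-ps8, Rps19-ps3 and Rpl31-ps7 were called, and for 8 in double mutants, of which Rpsa-ps5, Rps19-ps3, Rpl31-ps7 and Rps4l-ps were.

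**Figure D4:**
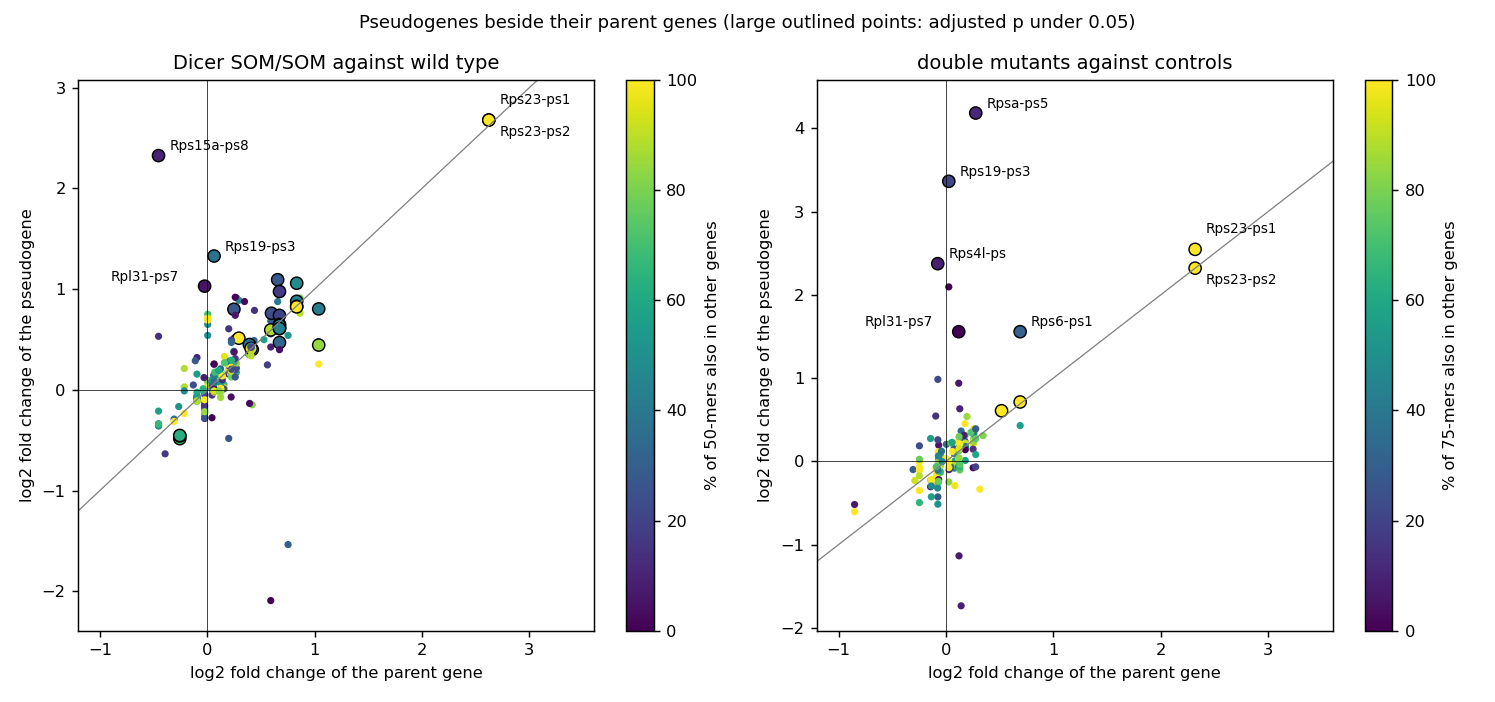
Each point is a tested pseudogene, with the log2 fold change of its parent on the x axis and its own on the y axis; colour gives the percentage of its 50-mers or 75-mers found in other genes, the grey line equal change and an outline an adjusted p under 0.05. In Dicer SOM/SOM 193 of 216 points lie within 0.5 of the line, and in double mutants Rpsa-ps5 (4.18) and Rps19-ps3 (3.36) stand over parents near 0.

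The piRNA mutant, a single sample with no test, lay outside the range of the 4 controls and at least 1 log2 unit from their mean (log2 of CPM + 0.1) for 1 member above and 3 below of 125, or 0.8% and 2.4%, beside 2.96% and 3.86% of all genes. The member above was Rpsa-ps5. Those below were Rpl31-ps11, at 0.254 CPM against 0.479 to 0.738, Rpl12-ps2, at 0.0561 against 0.482 to 1.16, and Rpl31-ps18, at 0.0331 against 0.159 to 0.462. Rpl12-ps2 and Rpl31-ps18 lay under the value of 3 counts in that sample. By the same rule, Dicer ΔMT/WT had no member above the wild-type range and 1 below of 217, Rps19-ps11, at 0.0236 CPM against 0.0378 to 0.362 and also under the value of 3 counts, beside 2.11% and 2.92% of all genes.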

How the data were processed

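RNA of GV oocytes was sequenced in a single-end run (11 samples) and a paired-end run (11 samples). The authors mapped reads to mm10 with STAR 2.5.3a and counted them per gene of GENCODE M15 with featureCounts, without strand, dividing reads with several places between these. The deposited values are estimated counts that need not be whole, and they were rounded to whole numbers for the tests.

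Each run was fitted apart with all its groups sharing 1 estimate of the spread: edgeR 4.0.16 (R 4.3.3), TMM normalization, a filter of at least about 10 counts (15 in total), the quasi-likelihood F test and Benjamini-Hochberg adjustment over all genes tested, with calls at an adjusted p under 0.05. Fold changes used a prior count of 0.125. The code was tested on simulated data. CPM are TMM-scaled. Named were the 8 most abundant members of wild type and of controls, up to 8 called members per comparison and direction with the largest change and a group mean of at least 1 CPM, all tested members whose parent the study lists as a potential siRNA target, Rpsa-ps5, and their parents, which made 43 members. Rpsa-ps5 was named as the only member in the supplementary gene lists of the study. Rpsa-ps10, Rps4l-ps and members outside the range of a group in single samples were named after their values were seen. Members and lists were chosen with earlier results of these data known. Shared 50-mers and 75-mers, identity and printed sequences came from GENCODE M21 transcripts of the same assembly. Alternatives were DESeq2 1.42.0, limma 3.58.1 (voom), RLE size factors, other filters, a prior count of 2, other thresholds, a replicate block, an age term, fits of only the groups compared and fits without 1 sample. Fits on Gm42418 were added after seeing the data. The table of repeat elements was not used here, and the results of 1 family are not reported here.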

Additional observations from a re-analysis of the deposited data

Results flagged for a closer look

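In 120 groups of 4 samples (40 named members in 3 groups), 10 had a lowest or highest sample set apart from the other 3 by Dixon's test, where chance alone flags about 1 in 20. Of these, 4 were in controls, and 2 of the 4 were control replicate 2. In that sample Rps15a-ps7 had 0.777 CPM (the others 0.375 to 0.442) and Rps18-ps3 1.93 (1.26 to 1.35). Rpl7-ps7 had 0.401 CPM in control replicate 1o (0.621 to 0.661), and Rpl19-ps4 0.0581 in control replicate 3 (0.00284 to 0.0122).

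Among double mutants, Rpl18-ps1 had 2.32 CPM in replicate 1o (1.67 to 1.71), Rps15a-ps3 0.411 in replicate 2 (0.18 to 0.208), and Rpl19-ps4 0.0145 in replicate 1, with the others at 0. Both Rpl19-ps4 values lie under the value of 3 counts. Among Dicer ΔMT/ΔMT samples, Rps19-ps3 had 1.69 CPM in replicate 4 (1.51 to 1.53), Rpl23a-ps3 6.04 in replicate 1 (8.09 to 8.40) and Rpl7-ps7 2.11 in replicate 3 (2.49 to 2.51).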

How the results depend on the processing

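No direction reversed under any alternative run. The number of members called in Dicer ΔMT/ΔMT against wild type, 15, was 6 without a filter, 26 at an adjusted p under 0.1, 2 with at least 1 log2 unit, and 5 to 11 without 1 sample. It was 17 by DESeq2, 19 with a filter at 1 CPM, 22 by limma-voom and 22 in a fit of only these 2 groups. In Dicer SOM/SOM against wild type, 30, it was 19 without a filter, 16 in a fit of only these 2 groups, 7 with at least 1 log2 unit, and 18 to 33 without 1 sample. Between the mutants, 12, it was 1 with at least 1 log2 unit, and 4 to 12 without 1 sample. Without both samples above 10000 CPM of Gm42418, which leaves 1 Dicer SOM/SOM sample, it was lower in both of these comparisons. In RNAi mutants, 7, it was 3 with an age term, 4 in a fit of only the 2 groups, and 3 to 5 without 1 sample. Between double and RNAi mutants, 0, it was 1 by DESeq2 and 1 without a filter. In the piRNA mutant, 1 member in place of 4 lay at least 2 log2 units away. The cause of these shifts was not tested. Of the fold changes of named members compared, 430 kept their side of the threshold and 114 lost the call. Calls gained are not in these counts. Rps13-ps2 gained a call in Dicer ΔMT/ΔMT by DESeq2, for example, and Rps18-ps3 in Dicer SOM/SOM by limma-voom.

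With the replicate number as a block, the counts were 4 (Dicer ΔMT/ΔMT), 20 (Dicer SOM/SOM), 4 (between these), 4 (RNAi mutants), 7 (double mutants) and 0 (double against RNAi mutants). Same-numbered samples correlated by −0.07 to 0.179 in their deviations from the group means. Samples with different numbers were not compared in this way, so whether same-numbered samples share more than a number was not tested. Low depth limits Dicer SOM/SOM replicate 3 most.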
